A study of Mus musculus with 586 samples.

Results

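Mesoderm was compared with endoderm in mouse embryos at E7.0 (embryonic day 7.0), in mid-gastrulation, in 60 of the 586 libraries of the series. The libraries were made by Geo-seq, in which RNA is sequenced from about 20 cells captured by laser from a known place in a cryosection of the embryo. The mesoderm libraries are those coded M, with 10 libraries in each of 2 embryos. Against them stand the libraries coded EA and EP, read as anterior and posterior endoderm, with 10 of each code in each of the same 2 embryos. Every library came from a C57BL/6 embryo with no treatment or mutation named, and sections 2 to 11 run from distal to proximal. In each section the mean of EA and EP was subtracted from M on the scale of log2(FPKM + 1), where FPKM is the number of sequenced fragments scaled to the length of the transcript in kilobases and to the number of mapped fragments. These differences were averaged over the 10 sections of an embryo, and the embryo was the replicate (n = 2). The region codes are not spelled out in the labels and follow the reading of the published atlas.

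During gastrulation, epiblast cells lose their epithelial junctions in the primitive streak, move inward and spread as a loose layer of mesoderm. WNT, NODAL, FGF and BMP signals drive this step, and T-box factors, MESP1 and SNAI1 carry it out. The endoderm on the outside of the embryo is at first visceral endoderm, an epithelium that takes up and digests maternal proteins and secretes carriers such as transthyretin and apolipoproteins. Definitive endoderm cells that leave the streak are inserted into it. Outside this layer lie Reichert's membrane with the parietal endoderm, trophoblast giant cells and the blood and decidua of the mother.

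The 60 libraries had 4654 to 10009 genes at 1 FPKM or more and FPKM sums of 111790 to 702151. Their depth, estimated from the lowest FPKM steps of genes that have a single annotated transcript, was roughly 0.639 to 5.49 times 1000000 reads. The mesoderm markers summed to 48.0, 410 and 971 FPKM in mesoderm libraries (lowest, median and highest, here and below), against 2.43, 52.0 and 735 FPKM in endoderm libraries. Visceral and definitive endoderm markers summed to 16.5, 72.6 and 1008 FPKM in mesoderm libraries, against 114, 1036 and 12008 FPKM in endoderm libraries. In each of the 20 sections the mesoderm sum was highest in M and the endoderm sum lowest in M, so the codes held against these sums, though not against every marker. In embryo 1, the M libraries of sections 2 and 3 stood apart: Mesp1 was at 0 in both, and their mesoderm markers summed to 66.9 and 48.0 FPKM. In embryo 2, the M libraries of sections 8, 9, 10 and 11 held the most endoderm RNA among M libraries, with endoderm marker sums of 734, 403, 1008 and 333 FPKM. The highest mesoderm sums among endoderm libraries, of 735, 718 and 664 FPKM, were in the EP libraries of sections 3, 4 and 5 of embryo 2.

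Markers of tissues outside the embryo were found mainly in the endoderm libraries. Extra-embryonic ectoderm markers summed to 0, 0.542 and 7.78 FPKM in mesoderm libraries and to 1.98, 24.9 and 117 FPKM in endoderm libraries. Elf5, one of the defining genes of this tissue, was at 0 in 17 of 20 mesoderm and 38 of 40 endoderm libraries. Parietal endoderm markers summed to 0, 6.28 and 33.0 FPKM in mesoderm libraries and to 4.47, 57.8 and 205 FPKM in endoderm libraries. Maternal decidua and blood markers, led by the adult globin Hba-a1, summed to 1.83, 395 and 1691 FPKM in mesoderm libraries and to 482, 3147 and 37223 FPKM in endoderm libraries. Of the markers of this set, Lum was at 0 in every endoderm library. Epiblast markers summed to 6.32, 24.4 and 59.0 FPKM in mesoderm libraries and to 1.55, 12.8 and 72.5 FPKM in endoderm libraries, while the 40 E7.0 libraries coded A, P, L and R, read as epiblast, had 3.81, 55.9 and 300.0 FPKM. In each marker set every marker present in the tables was detected in at least 1 of the 60 libraries. The part of these tissues in the differences below was not tested, and fewer cells of a type and less RNA per cell cannot be told apart in such libraries.

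**Figure D1:**
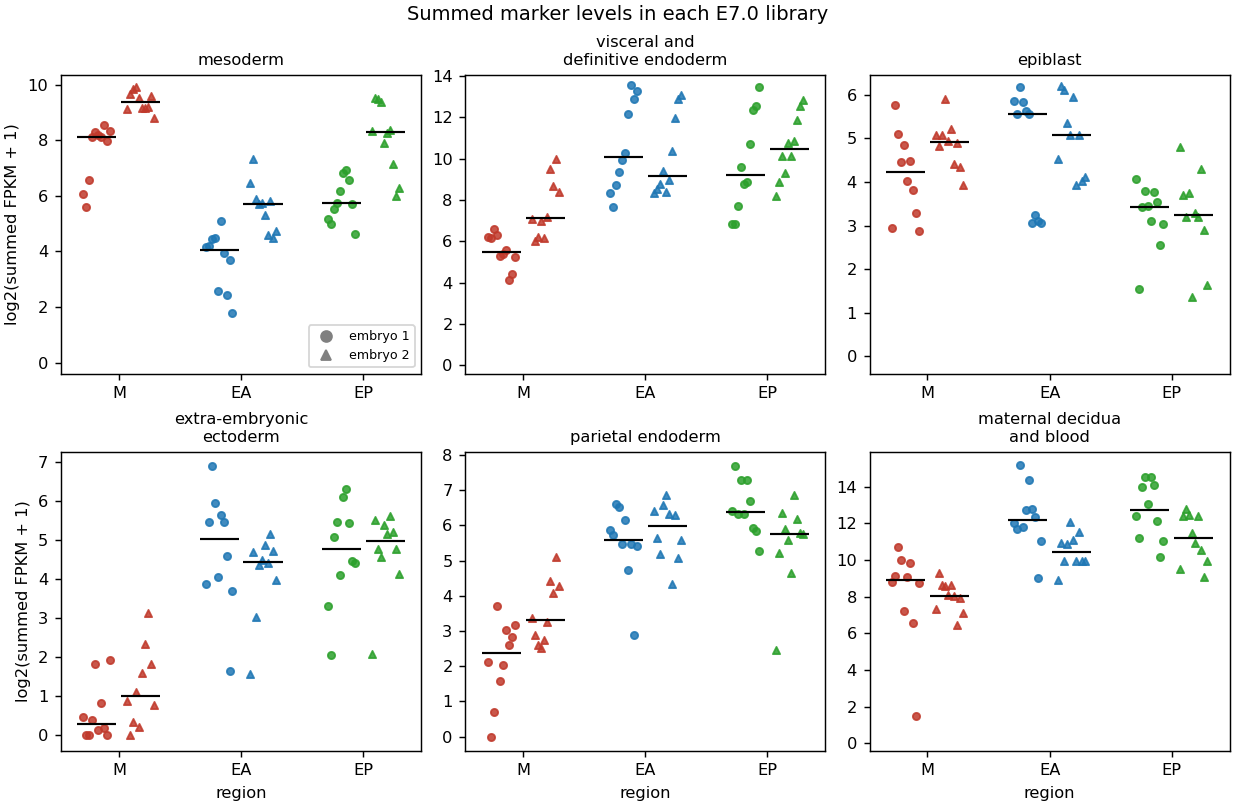
Summed levels of 6 sets of marker genes in each library, as log2(summed FPKM + 1), for M, EA and EP in embryo 1 (circles) and embryo 2 (triangles), with libraries in order of section from left to right and black lines at the medians of 10 libraries. Mesoderm markers reach 971 FPKM in M, and the extra-embryonic, parietal and maternal sets are highest in EA and EP.

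Of 10512 genes tested, 1078 (10.3%) were higher and 983 (9.35%) lower in mesoderm at an adjusted p under 0.05 (limma with Benjamini-Hochberg adjustment over all genes tested). Of the called genes, 593 were at least 1 log2 unit lower in mesoderm, and 307 were at least 1 log2 unit higher. All 2061 called genes had the same sign in both embryos. A gene with opposite signs could hardly be called, since disagreement between the embryos adds to its spread. In 20 of 20 sections, 64 of the higher and 145 of the lower genes had the sign of their call. With library medians made equal, 1606 genes (15.3%) were higher and 1093 (10.4%) lower, and 1012 of the higher and 945 of the lower calls were among them. No call changed direction under equal medians. The median difference of all genes was 0.15 as deposited and 0.15 with equal medians. Without embryo 1, 3160 genes were higher and 955 lower, and without embryo 2, 1126 were higher and 1692 lower. In those fits the lone E7.0 embryo was assumed to vary like the 2 E7.5 embryos, and the value of a gene in 1 embryo, given below, is also its value without the other. Without sections 8 to 11 of embryo 2, 677 genes were higher and 754 lower, and the calls on Ripply2, Ccnd1, Cdh2, Snai1, Mmp2, Smo, Foxf1, Hoxb2, Ihh and Id2 were lost (adjusted p = 0.051 to 0.31). Genes could enter the test through 1 tissue alone: 417 of the 983 lower genes averaged under 1 FPKM in mesoderm, and 171 of the 1078 higher genes averaged under 1 FPKM in endoderm. The counts of gene groups below cover tested members only and are read against the shares of all genes.

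**Figure D2:**
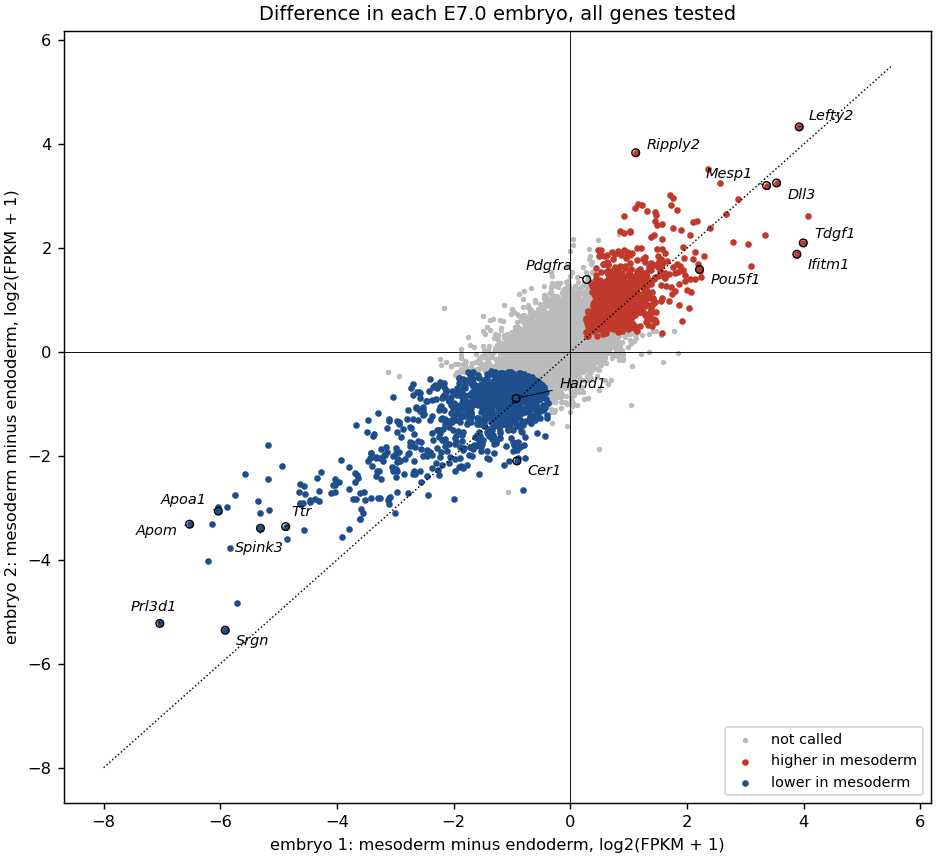
Difference between mesoderm and endoderm in log2(FPKM + 1) in embryo 1 (x) and embryo 2 (y) for the 10512 genes tested, with the 1078 called higher in mesoderm in red, the 983 called lower in blue and the rest in grey. The dotted line marks equal differences, and Prl3d1 lies at -7.04 in embryo 1 and -5.22 in embryo 2, Lefty2 at 3.92 and 4.33.

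Genes of nascent and paraxial mesoderm were mostly higher in mesoderm: 16 of the 29 tested members rose, 3 fell and 10 did not pass, with a median difference of 1.09 against 0.15 for all genes tested. Lefty2, a secreted antagonist of NODAL made by new mesoderm, had the largest rise of all called genes with a mean of at least 5 FPKM. It was at 0, 129 and 346 FPKM in mesoderm libraries, against 0, 1.22 and 212 FPKM in endoderm libraries. The median of the EA libraries was 0 and that of the EP libraries 6.75 FPKM, and Lefty2 in M exceeded both endoderm libraries in 19 of 20 sections. Its difference was 4.13 ± 0.26 (log2, SE; 3.92 in embryo 1 and 4.33 in embryo 2, adjusted p = 0.00073).

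Mesp1, a bHLH factor of the earliest cardiac and cranial mesoderm, was at 0, 173 and 479 FPKM in mesoderm libraries and at 0, 11.5 and 268 FPKM in endoderm libraries. M exceeded both endoderm libraries in 18 of 20 sections, by 3.28 ± 0.19 (3.36 in embryo 1 and 3.20 in embryo 2, adjusted p = 0.00073). Dll3, a Notch ligand of the presomitic mesoderm, had 0.961, 29.5 and 92.7 FPKM in mesoderm libraries and 0, 1.08 and 45.0 FPKM in endoderm libraries, a difference of 3.39 ± 0.29 (3.53 in embryo 1 and 3.25 in embryo 2, adjusted p = 0.0014). T (Brachyury), the T-box factor of streak and axial mesoderm, had 16.3, 43.4 and 238 FPKM in mesoderm libraries and 0, 4.99 and 190.5 FPKM in endoderm libraries. It was higher in M than in the mean of EA and EP in 20 of 20 sections, by 2.80 ± 0.27 (3.34 in embryo 1 and 2.26 in embryo 2, adjusted p = 0.0015). Higher too was Mixl1, a homeobox factor active in the streak, by 2.45 ± 0.22 (2.79 in embryo 1 and 2.11 in embryo 2, adjusted p = 0.0014), with medians of 23.5 FPKM in M, 0.593 FPKM in EA and 17.8 FPKM in EP. Ripply2, a repressor of the forming somites, was higher by 2.48 ± 0.58 (1.12 in embryo 1 and 3.84 in embryo 2, adjusted p = 0.028), and the call was lost without embryo 2 (adjusted p = 0.22) and in the 2 E7.0 embryos fitted alone (adjusted p = 0.36). Eomes, a T-box factor of streak, mesoderm and endoderm precursors, was 1.45 ± 0.18 higher (1.63 in embryo 1 and 1.27 in embryo 2, adjusted p = 0.0034). The 3 members that fell were Cited1, Hand1 and Dkk1.

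The promoter of Mesp1 is shown because MESP1 leads the early mesoderm and is a known target of T-box factors. It comes from RefSeq on GRCm38.p6, chr7:79793541-79793840, minus strand, from 250 bases before to 50 bases after the start of the gene, and the capitals mark a T-box site (TCACACCT, the reverse complement of AGGTGTGA) and an E-box (CAGGTG).
Mesp1: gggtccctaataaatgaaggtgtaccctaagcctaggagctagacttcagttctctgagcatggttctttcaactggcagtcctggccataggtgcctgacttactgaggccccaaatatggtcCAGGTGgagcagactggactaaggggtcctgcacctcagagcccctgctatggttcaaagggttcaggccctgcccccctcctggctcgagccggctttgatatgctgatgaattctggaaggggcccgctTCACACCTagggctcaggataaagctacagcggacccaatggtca
Both motifs were searched on both strands, and they share the letters AGGTG, so a site can count for both. Of 7869 tested genes with a promoter in this table, 0.826% held AGGTGTGA or its reverse complement. Among genes at least 1 log2 unit higher in mesoderm, 2 of 211 (0.948%) held it, and among genes at least 1 unit lower, 4 of 435 (0.92%).

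Of 17 tested genes of the epithelial to mesenchymal transition, 9 rose, 1 fell (Sparc) and 7 did not pass, and Snai1 and Twist1 among the 9 are also on the mesoderm list. Fn1, the fibronectin on which mesoderm migrates, had 1.33, 58.9 and 116 FPKM in mesoderm libraries, against 0.823, 13.2 and 69.5 FPKM in endoderm libraries. It was higher by 1.95 ± 0.24 (2.1 in embryo 1 and 1.79 in embryo 2, adjusted p = 0.0034) and exceeded both endoderm libraries in 18 of 20 sections. Cdh2, N-cadherin, was 1.49 ± 0.21 higher (1.80 in embryo 1 and 1.18 in embryo 2, adjusted p = 0.0054), and Cdh11, a cadherin of mesenchyme, 2.35 ± 0.25 higher (2.17 in embryo 1 and 2.53 in embryo 2, adjusted p = 0.0023). Mmp2, a gelatinase, rose by 1.01 ± 0.16 (1.08 in embryo 1 and 0.95 in embryo 2, adjusted p = 0.0078). Snai1, the repressor of E-cadherin, had 0, 25.9 and 73.8 FPKM in mesoderm libraries and 0, 11.0 and 78.3 FPKM in endoderm libraries, with a difference of 1.10 ± 0.31 (0.63 in embryo 1 and 1.56 in embryo 2, adjusted p = 0.046). The call on Snai1 was lost without embryo 2 (adjusted p = 0.33) and with equal medians (0.90, adjusted p = 0.082). Snai1 is also known from parietal endoderm, whose markers were in the endoderm libraries.

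Of 18 cardiac and lateral mesoderm genes tested, 2 rose, 3 fell and 13 did not pass, against 10.3% higher and 9.35% lower of all genes. Of 12 blood and endothelial genes, 2 rose and 6 fell, and 5 of the 6 averaged under 1 FPKM in mesoderm. Myl7, the atrial myosin light chain, had 3.75, 469 and 904 FPKM in mesoderm libraries and 0, 38.5 and 146 FPKM in endoderm libraries, and M exceeded both endoderm libraries in 20 of 20 sections (3.35 ± 0.33; 4.08 in embryo 1 and 2.63 in embryo 2, adjusted p = 0.0018). Kdr, the VEGF receptor of vascular and cardiac progenitors, was 1.73 ± 0.24 higher (1.48 in embryo 1 and 1.98 in embryo 2, adjusted p = 0.0051), and Etv2, an ETS factor at the start of the blood and vessel lineages, 1.60 ± 0.23 higher (2.00 in embryo 1 and 1.19 in embryo 2, adjusted p = 0.0054). Foxf1, a forkhead factor of lateral mesoderm, was 0.85 ± 0.20 higher (0.54 in embryo 1 and 1.17 in embryo 2, adjusted p = 0.027), a call lost without embryo 2 (adjusted p = 0.1). The fallen blood and endothelial genes were Gata2, Hhex, Pecam1, Cdh5, Sox7 and Esam. Sox7 and Hhex are also known in visceral or parietal endoderm and Gata2 in trophoblast giant cells. The embryonic blood markers Hbb-bh1, Hba-x and Gata1 summed to a median of 0.115 FPKM in mesoderm libraries and 0 FPKM in endoderm libraries.

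Hand1, Gata4, Gata6 and Pdgfra, often used as mesoderm markers, were not among the genes that rose. Hand1, a bHLH factor of lateral and extra-embryonic mesoderm and of trophoblast giant cells, was lower in mesoderm (-0.91 ± 0.20; -0.93 in embryo 1 and -0.89 in embryo 2, adjusted p = 0.023). This call was lost when sections 2 to 4 of embryo 1 were left out (-0.55, adjusted p = 0.13). The endoderm factors Gata4 and Gata6, which mesoderm also expresses, differed by -0.27 ± 0.22 (-0.60 in embryo 1 and 0.06 in embryo 2, adjusted p = 0.38) and -0.35 ± 0.20 (-0.29 in embryo 1 and -0.42 in embryo 2, adjusted p = 0.24). Pdgfra, a PDGF receptor of mesoderm and parietal endoderm, had 0, 6.62 and 13.6 FPKM in mesoderm libraries and 0.163, 2.24 and 8.51 FPKM in endoderm libraries, with a difference of 0.84 ± 0.27 that did not pass (0.28 in embryo 1 and 1.40 in embryo 2, adjusted p = 0.068). It passed without embryo 1 (1.40, adjusted p = 0.0011) and without sections 2 to 4 of embryo 1 (1.25, adjusted p = 0.0065).

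**Figure D3:**
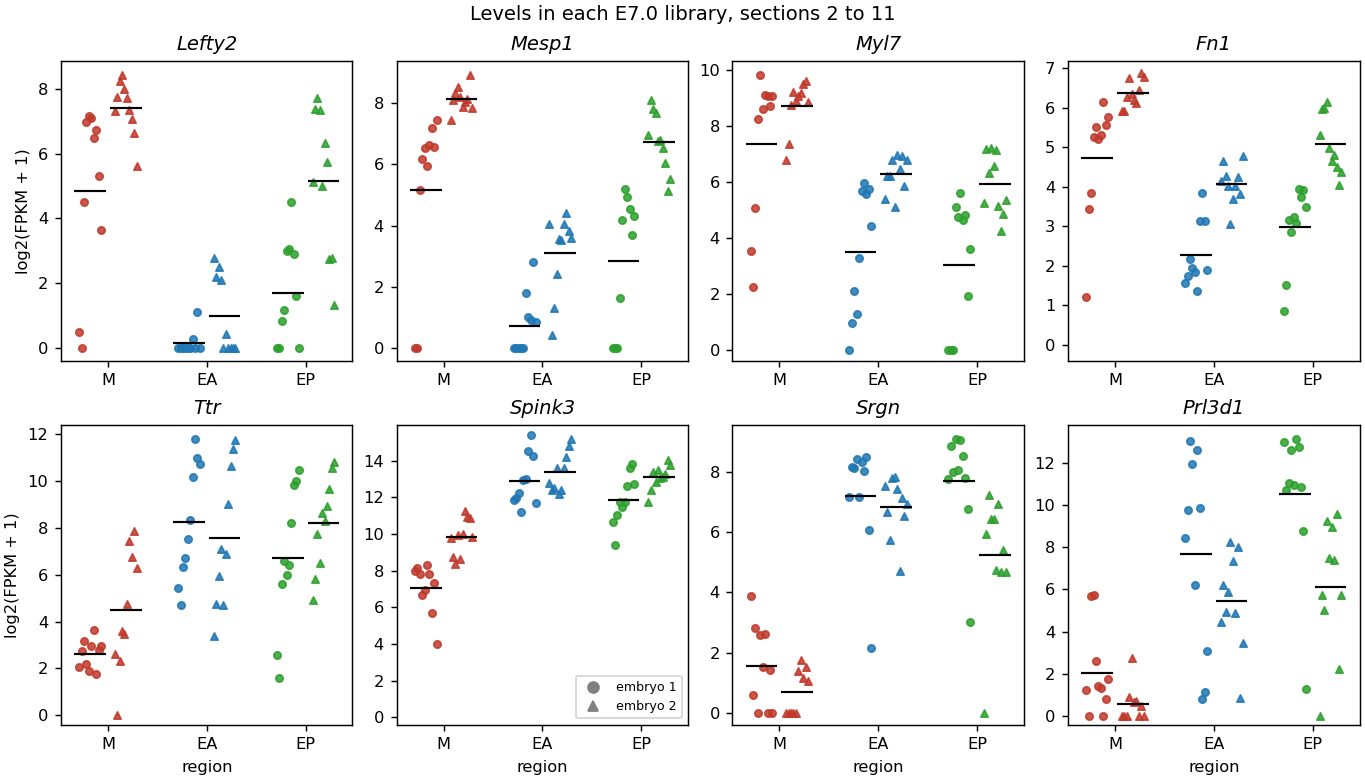
Levels of 8 genes in each library as log2(FPKM + 1), for M, EA and EP in embryo 1 (circles) and embryo 2 (triangles), with libraries in order of section from left to right and black lines at the mean of 10 libraries. Lefty2, Mesp1, Myl7 and Fn1 are highest in M, Ttr, Spink3, Srgn and Prl3d1 in EA and EP, and the 2 distal M libraries of embryo 1 are at or near 0 for Lefty2 and Mesp1.

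Secreted proteins of the visceral endoderm were lower in mesoderm nearly throughout. Of 21 tested members, 20 were lower in mesoderm, none was higher and 1 did not pass, with a median difference of -3.05. Of the 20, 4 averaged under 1 FPKM in mesoderm. Ttr, transthyretin, had 0, 6.84 and 232 FPKM in mesoderm libraries, against 2.05, 196 and 3563 FPKM in endoderm libraries, and was below both endoderm libraries in 19 of 20 sections. Its difference was -4.12 ± 0.34 (-4.88 in embryo 1 and -3.36 in embryo 2, adjusted p = 0.0013). Spink3, a protease inhibitor, was at 15.1, 318 and 2440.5 FPKM in mesoderm libraries and 670.0, 7179 and 42236 FPKM in endoderm libraries. It was lower in mesoderm (-4.35 ± 0.37; -5.31 in embryo 1 and -3.39 in embryo 2, adjusted p = 0.0014), and lay below both endoderm libraries in 20 of 20 sections. Apoa1, the main protein of high density lipoprotein, had 0, 12.9 and 355 FPKM in mesoderm libraries and 19.1, 375 and 6481 FPKM in endoderm libraries (-4.55 ± 0.58; -6.03 in embryo 1 and -3.06 in embryo 2, adjusted p = 0.0036). Apom, a lipocalin carried by lipoproteins, differed by -4.92 ± 0.62 (-6.53 in embryo 1 and -3.31 in embryo 2, adjusted p = 0.0035).

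Rbp4, the carrier of retinol, differed by -3.96 ± 0.63 (-5.58 in embryo 1 and -2.34 in embryo 2, adjusted p = 0.0081), Apoe by -3.23 ± 0.33 (-3.96 in embryo 1 and -2.50 in embryo 2, adjusted p = 0.002) and Trf, transferrin, by -2.52 ± 0.29 (-2.69 in embryo 1 and -2.35 in embryo 2, adjusted p = 0.0027). Afp, alpha-fetoprotein, had 0, 2.04 and 43.8 FPKM in mesoderm libraries and 0.846, 57.3 and 307 FPKM in endoderm libraries, and differed by -3.77 ± 0.47 (-4.64 in embryo 1 and -2.90 in embryo 2, adjusted p = 0.0034). The call on Afp was lost without embryo 1 (adjusted p = 0.16) and without embryo 2 (adjusted p = 0.11), as was that on Apob (-3.05 ± 0.38; -3.30 in embryo 1 and -2.81 in embryo 2, adjusted p = 0.0033, against 0.18 and 0.18). Fitted on the 2 E7.0 embryos alone, the differences of Apoa1, Apom, Rbp4 and Spink3 did not pass, at adjusted p of 0.084, 0.16, 0.22 and 0.14. Without sections 8 to 11 of embryo 2, whose M libraries held the most endoderm RNA, the differences were -4.16 for Ttr, -4.40 for Spink3 and -4.59 for Apoa1 (adjusted p = 0.0022, 0.0026 and 0.0079). The median of Spink3 in M was 193 FPKM in embryo 1 and 956 FPKM in embryo 2.

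The promoter of Afp is shown because it holds the HNF1 motif searched here, marked in capitals (GTTAAT, any base, then ATT, on both strands), a motif long studied in this gene in liver. The sequence is from RefSeq on GRCm38.p6, chr5:90490464-90490763, plus strand.
Afp: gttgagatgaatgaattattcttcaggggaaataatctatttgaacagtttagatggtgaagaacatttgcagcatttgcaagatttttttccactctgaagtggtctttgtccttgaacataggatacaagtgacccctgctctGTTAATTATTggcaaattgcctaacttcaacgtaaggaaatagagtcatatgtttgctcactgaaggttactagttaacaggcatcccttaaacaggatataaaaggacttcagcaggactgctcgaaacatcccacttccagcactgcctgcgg
The motif was present in 6 of 435 promoters (1.38%) of genes at least 1 log2 unit lower in mesoderm, in 0 of 211 of genes at least 1 unit higher, and in 19 of all 7869 (0.241%). The HNF4 motif CAAAGTCCA, or its reverse complement, was present in 3 of 435 promoters (0.69%) of the lower genes, in 1 of 211 (0.474%) of the higher genes and in 26 of 7869 (0.33%). A match of letters in this window is a description, and does not show binding.

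Endocytic receptors and lysosomal genes, the uptake machinery of visceral endoderm, were lower in mesoderm for 21 of 32 members tested and higher for none. Of the 21, 3 averaged under 1 FPKM in mesoderm. Amn, the partner of cubilin in apical endocytosis, had 0, 1.29 and 34.5 FPKM in mesoderm libraries and 0.504, 39.3 and 311 FPKM in endoderm libraries, and was below both endoderm libraries in 20 of 20 sections (-3.66 ± 0.38; -4.47 in embryo 1 and -2.84 in embryo 2, adjusted p = 0.0021). Cubn, cubilin, differed by -2.63 ± 0.37 (-2.98 in embryo 1 and -2.28 in embryo 2, adjusted p = 0.0051), a call lost without embryo 1 (adjusted p = 0.14) and without embryo 2 (adjusted p = 0.12). Slc39a4 and Slc39a8, metal transporters, differed by -2.60 ± 0.19 (-2.85 in embryo 1 and -2.35 in embryo 2, adjusted p = 0.00092) and -2.03 ± 0.21 (-1.88 in embryo 1 and -2.19 in embryo 2, adjusted p = 0.002). Cd63, a tetraspanin of late endosomes, differed by -2.68 ± 0.29 (-3.34 in embryo 1 and -2.01 in embryo 2, adjusted p = 0.0024). Of 13 genes of iron, heme and metal handling, 7 were lower and none higher, among them the metallothioneins Mt1 (-3.57 ± 0.40; -4.56 in embryo 1 and -2.57 in embryo 2, adjusted p = 0.0026) and Mt2 (-3.49 ± 0.36; -4.31 in embryo 1 and -2.68 in embryo 2, adjusted p = 0.0021). Among 23 lipid and sterol genes, 7 were lower and none higher. Of all genes tested, 9.35% were lower and 10.3% higher, the shares against which the counts of these lists are read. The lists are not separate. Of the lower lipid and sterol genes, Mttp and Soat2 are also on the secreted protein list and Fabp3 on the endocytic list. Of the lower metal genes, Trf is also on the secreted protein list, and Cubn and Slc39a8 on the endocytic list.

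Endoderm transcription factors were lower in mesoderm for 13 of 20 members, and Eomes was the 1 that was higher. Of the 13, 8 averaged under 1 FPKM in mesoderm, and a member that passed the filter through endoderm alone could only be lower. Sox17, a factor of visceral and definitive endoderm, had 0, 2.3 and 12.7 FPKM in mesoderm libraries and 1.82, 12.6 and 47.1 FPKM in endoderm libraries, and was below both endoderm libraries in 19 of 20 sections (-2.06 ± 0.20; -1.90 in embryo 1 and -2.21 in embryo 2, adjusted p = 0.0017). Foxa2, a forkhead factor of endoderm and axial mesoderm, had 0, 4.57 and 29.6 FPKM in mesoderm libraries and 0, 15.3 and 45.8 FPKM in endoderm libraries (-1.40 ± 0.29; -0.77 in embryo 1 and -2.04 in embryo 2, adjusted p = 0.019). Hnf4a, a regulator of the visceral endoderm secretory genes, differed by -1.64 ± 0.25 (-1.97 in embryo 1 and -1.30 in embryo 2, adjusted p = 0.0067) and Foxa3 by -1.5 ± 0.18 (-1.28 in embryo 1 and -1.71 in embryo 2, adjusted p = 0.0033). Rhox5, an X-linked homeobox gene of extra-embryonic tissues, had 0, 7.71 and 95.8 FPKM in mesoderm libraries and 76.7, 232 and 1103 FPKM in endoderm libraries, and was below both endoderm libraries in 20 of 20 sections (-4.51 ± 0.60; -6.04 in embryo 1 and -2.98 in embryo 2, adjusted p = 0.0042, and 0.12 in the 2 E7.0 embryos fitted alone). Of 16 definitive endoderm genes tested, 11 were lower and none was higher. Tmprss2, a serine protease of that list, differed by -3.30 ± 0.20 (-3.59 in embryo 1 and -3.01 in embryo 2, adjusted p = 0.00073).

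Epithelial genes were lower in mesoderm: 18 of 27 junction and polarity genes and 9 of 9 tested keratin and desmosome genes fell, and none rose. Of all genes, 9.35% were lower and 10.3% higher. The keratin and desmosome list held 14 genes, of which 9 were tested. Of the genes that fell, 4 on the junction and polarity list and 2 on the keratin and desmosome list averaged under 1 FPKM in mesoderm. A member that passed the filter through endoderm alone could only be lower. Both lists share no member, while Cdh1, Epcam, Cldn6 and Krt19 also stand on the definitive endoderm list. Krt8 and Krt18 form the first keratin filaments of simple epithelia. Krt8 had 3.52, 28.9 and 70.9 FPKM in mesoderm libraries and 56.9, 211 and 391 FPKM in endoderm libraries, and was below both endoderm libraries in 20 of 20 sections (-2.80 ± 0.26; -3.31 in embryo 1 and -2.28 in embryo 2, adjusted p = 0.0015). Krt18 behaved alike, with 3.3, 23.0 and 72.2 FPKM in mesoderm libraries and 62.5, 219 and 607 FPKM in endoderm libraries (-3.29 ± 0.32; -4.03 in embryo 1 and -2.56 in embryo 2, adjusted p = 0.0017). Keratins 7, 8, 18 and 19 are also made by trophoblast.

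The claudins Cldn6 and Cldn7, which seal tight junctions, differed by -3.26 ± 0.24 (-3.68 in embryo 1 and -2.84 in embryo 2, adjusted p = 0.00088) and -3.02 ± 0.19 (-3.10 in embryo 1 and -2.93 in embryo 2, adjusted p = 0.00073). Cdh1, E-cadherin, had 0, 4.48 and 20.4 FPKM in mesoderm libraries and 0, 17.1 and 54.5 FPKM in endoderm libraries, with a difference of -1.51 ± 0.20 (-1.28 in embryo 1 and -1.75 in embryo 2, adjusted p = 0.0041). Epcam, an adhesion protein of epithelia, had 3.43, 24.9 and 53.8 FPKM in mesoderm libraries and 7.43, 46.9 and 132 FPKM in endoderm libraries (-1.32 ± 0.22; -1.43 in embryo 1 and -1.22 in embryo 2, adjusted p = 0.0087). Epcam was above 0 in all 20 mesoderm libraries and Cdh1 in all but 1.

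The promoters of Epcam and Krt8 are shown because both genes fell and both hold the E-box CAGGTG, or its reverse complement CACCTG, the sequence that SNAI1 is known to bind in the promoter of E-cadherin. They come from RefSeq on GRCm38.p6, Epcam from chr17:87635729-87636028, plus strand and Krt8 from chr15:102004293-102004592, minus strand, with E-boxes and, in Krt8, a GATA motif (AGATAAG) in capitals.
Epcam: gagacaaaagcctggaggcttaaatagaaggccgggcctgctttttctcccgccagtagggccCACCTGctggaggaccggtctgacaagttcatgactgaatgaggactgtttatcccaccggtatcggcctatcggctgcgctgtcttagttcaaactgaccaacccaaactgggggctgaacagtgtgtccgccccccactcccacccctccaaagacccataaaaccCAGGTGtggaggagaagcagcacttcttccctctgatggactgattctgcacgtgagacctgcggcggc
Krt8: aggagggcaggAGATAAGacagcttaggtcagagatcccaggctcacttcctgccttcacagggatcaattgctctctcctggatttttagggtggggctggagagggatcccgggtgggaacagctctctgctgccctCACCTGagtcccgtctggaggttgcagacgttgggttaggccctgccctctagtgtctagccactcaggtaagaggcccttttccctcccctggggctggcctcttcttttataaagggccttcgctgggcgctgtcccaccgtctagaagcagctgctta
The E-box letters were in 106 of 435 promoters (24.4%) of genes at least 1 log2 unit lower in mesoderm, in 30 of 211 (14.2%) of genes at least 1 unit higher, and in 1300 of all 7869 (16.5%). AGATAAG or its reverse complement was in 16 of 435 (3.68%), 7 of 211 (3.32%) and 122 of 7869 (1.55%) of the same promoters. Binding of SNAI1 to these promoters and an effect of SNAI1 on these genes were not tested.

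Basement membrane genes were lower in mesoderm for 15 of 18 members, 2 of them with a mesoderm mean under 1 FPKM, and Fn1 and Col13a1 were higher. Nid1, nidogen, had 0, 0.677 and 1.48 FPKM in mesoderm libraries and 1.12, 21.3 and 83.9 FPKM in endoderm libraries, and was below both endoderm libraries in 20 of 20 sections (-3.61 ± 0.22; -3.80 in embryo 1 and -3.41 in embryo 2, adjusted p = 0.00073). Lama1 and Lamc1, chains of laminin-111, differed by -3.03 ± 0.28 (-3.64 in embryo 1 and -2.42 in embryo 2, adjusted p = 0.0015) and -3.28 ± 0.26 (-3.72 in embryo 1 and -2.83 in embryo 2, adjusted p = 0.0012). Col4a1 differed by -3.10 ± 0.29 (-3.68 in embryo 1 and -2.51 in embryo 2, adjusted p = 0.0015). Sparc, a matrix protein, had 1.8, 21.4 and 69.8 FPKM in mesoderm libraries and 11.8, 225 and 729.9 FPKM in endoderm libraries (-3.38 ± 0.43; -4.34 in embryo 1 and -2.42 in embryo 2, adjusted p = 0.0035). Parietal endoderm makes these same proteins in bulk for Reichert's membrane, and 13 of 16 genes of the parietal endoderm list were lower in mesoderm, with Snai1 higher. Among the 13, 3 averaged under 1 FPKM in mesoderm. Of these 13, Sparc, Lamb1, Lama1, Lamc1, Col4a1, Col4a2, Nid1 and Serpinh1 were already counted above. They stand on both lists, so the count of basement membrane genes is not separate from that of parietal endoderm. Thbd, a defining marker of that tissue, was at 0, 0 and 1.14 FPKM in mesoderm libraries and 0, 5.22 and 36.05 FPKM in endoderm libraries, with 13 of 20 mesoderm and 9 of 40 endoderm libraries at 0.

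Genes of trophoblast giant cells, parietal endoderm and adult blood were lower in mesoderm, and Prl3d1, Srgn and Prl2c2 had the largest falls among the genes named. Prl3d1, placental lactogen of giant cells, had 0, 0.694 and 52.1 FPKM in mesoderm libraries, against 0, 217 and 8900.4 FPKM in endoderm libraries (-6.13 ± 0.43; -7.04 in embryo 1 and -5.22 in embryo 2, adjusted p = 0.00083). Its median in the 20 endoderm libraries of each embryo was 1744 FPKM in embryo 1 and 55.4 FPKM in embryo 2. Of 26 prolactin family genes in the tables, 12 were tested, and 7 of these averaged under 1 FPKM in mesoderm, so a call on a member that passed the filter through endoderm alone could only be lower. Prl2c2 and Prl2c3 differed by -5.28 ± 0.31 (-5.72 in embryo 1 and -4.83 in embryo 2, adjusted p = 0.00073) and -5.12 ± 0.59 (-6.21 in embryo 1 and -4.03 in embryo 2, adjusted p = 0.0026). The call on Prl2c3 was lost without embryo 1 or embryo 2 (adjusted p = 0.18 and 0.14). Reads may be split unevenly among the near-identical Prl3d and Prl2c copies, so the values of single copies are uncertain. The summed family reached 0.626, 4.57 and 95.6 FPKM in mesoderm libraries and 0, 552 and 17138 FPKM in endoderm libraries.

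Srgn, serglycin, a proteoglycan also known from parietal endoderm, had 0, 1.15 and 13.8 FPKM in mesoderm libraries and 0, 143 and 552 FPKM in endoderm libraries, below both endoderm libraries in 19 of 20 sections (-5.63 ± 0.30; -5.92 in embryo 1 and -5.35 in embryo 2, adjusted p = 0.00073). Hba-a1, adult alpha-globin, had 1.39, 394 and 1690.5 FPKM in mesoderm libraries and 479, 3144 and 37147 FPKM in endoderm libraries, below both endoderm libraries in 20 of 20 sections (-3.60 ± 0.33; -4.37 in embryo 1 and -2.83 in embryo 2, adjusted p = 0.0015). The 4 adult globin genes tested were all lower in mesoderm, and the source of their RNA was not tested. Reads may be shared among the near-identical copies Hba-a1 and Hba-a2 and among Hbb-b1 and Hbb-b2, so these values are uncertain for each copy. The call on Hba-a2 (-4.80 ± 0.51; -5.84 in embryo 1 and -3.77 in embryo 2, adjusted p = 0.0023) was lost without embryo 1 or embryo 2 (adjusted p = 0.15 and 0.11). Plac1, Rhox6 and Rhox9, genes of the trophoblast lineage, differed by -3.58 ± 0.42 (-4.63 in embryo 1 and -2.54 in embryo 2, adjusted p = 0.003), -3.37 ± 0.30 (-4.04 in embryo 1 and -2.70 in embryo 2, adjusted p = 0.0014) and -2.30 ± 0.21 (-2.25 in embryo 1 and -2.36 in embryo 2, adjusted p = 0.0014). Altogether 8 of 13 extra-embryonic ectoderm and trophoblast genes and 6 of 9 maternal decidua and blood genes were lower in mesoderm. Of these 8, 4 averaged under 1 FPKM in mesoderm, as did 1 of these 6. The 6 were Prl8a2, Cryab and the 4 adult globin genes above, so this count rests mainly on globin copies.

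**Figure D4:**
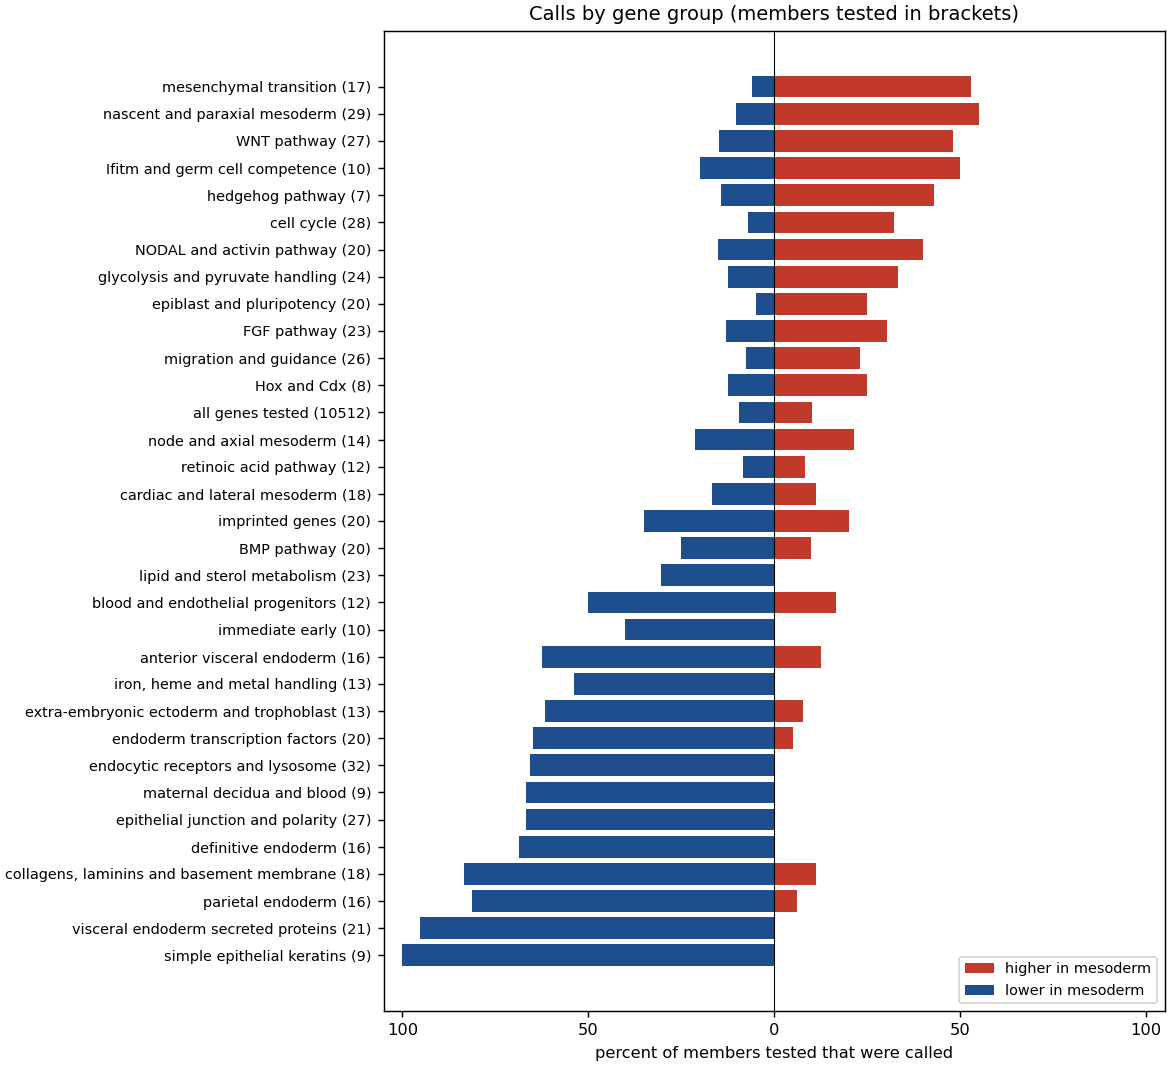
Percent of the tested members of each gene group that were called higher (red, to the right) or lower (blue, to the left) in mesoderm at an adjusted p under 0.05, with the number of members tested in brackets and all 10512 genes tested as 1 bar. Groups at the top are led by genes higher in mesoderm, as in mesenchymal transition with 9 of 17, and those at the bottom by genes lower in mesoderm, as in keratins with 9 of 9.

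WNT pathway genes were higher in mesoderm for 13 of 27 members and lower for 4, against 10.3% and 9.35% of all genes. Among ligands, Wnt2b, Wnt3, Wnt5a and Wnt5b rose. Wnt5a, a ligand of the non-canonical branch that acts on cell movement, had 0, 8.25 and 17.7 FPKM in mesoderm libraries and 0, 0.641 and 9.46 FPKM in endoderm libraries (2.02 ± 0.25; 1.57 in embryo 1 and 2.47 in embryo 2, adjusted p = 0.0035). The receptor gene Fzd1 rose by 1.52 ± 0.25 (1.24 in embryo 1 and 1.80 in embryo 2, adjusted p = 0.0093), with Fzd2 and Fzd7, while Fzd5 fell (-1.5 ± 0.16; -1.39 in embryo 1 and -1.61 in embryo 2, adjusted p = 0.0022), with Fzd8. Lef1, the nuclear partner of beta-catenin, had 0, 22.9 and 48.6 FPKM in mesoderm libraries and 0, 1.77 and 33.6 FPKM in endoderm libraries (2.39 ± 0.18; 2.40 in embryo 1 and 2.38 in embryo 2, adjusted p = 0.00092). The secreted antagonists Dkk1 and Sfrp5, known from anterior visceral endoderm, were lower in mesoderm, and Frzb, another antagonist, was higher. Sfrp5 differed by -1.53 ± 0.22 (-1.71 in embryo 1 and -1.35 in embryo 2, adjusted p = 0.0054).

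In the NODAL pathway, 8 of 20 members were higher and 3 lower in mesoderm, against 10.3% and 9.35% of all genes. Nodal itself, the ligand, had 0, 0.432 and 6.14 FPKM in mesoderm libraries and 0, 3.97 and 25.6 FPKM in endoderm libraries, and was lower in mesoderm (-1.21 ± 0.22; -0.78 in embryo 1 and -1.64 in embryo 2, adjusted p = 0.012). The co-receptor Tdgf1 (Cripto) was higher, at 79.4, 159.9 and 254 FPKM in mesoderm libraries and 0, 18.7 and 193 FPKM in endoderm libraries (3.05 ± 0.42; 3.99 in embryo 1 and 2.1 in embryo 2, adjusted p = 0.005). Gdf1, a partner ligand of NODAL, rose by 1.76 ± 0.18 (1.62 in embryo 1 and 1.90 in embryo 2, adjusted p = 0.0018), and Foxh1, a DNA-binding partner of SMAD2, by 1.70 ± 0.20 (1.85 in embryo 1 and 1.55 in embryo 2, adjusted p = 0.0031). The receptor genes Acvr2a and Acvr2b rose too. Cer1, a secreted antagonist of NODAL made by anterior endoderm, was lower (-1.51 ± 0.29; -0.92 in embryo 1 and -2.1 in embryo 2, adjusted p = 0.015), so of the secreted antagonists Lefty2 was higher and Cer1 lower in mesoderm.

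Of 20 BMP pathway genes, 2 rose, at the share of all genes (10.3%), 5 fell (9.35% of all genes) and 13 did not pass. Bmp7, a ligand, was higher by 0.85 ± 0.17 (0.85 in embryo 1 and 0.86 in embryo 2, adjusted p = 0.016). Bmp2, another ligand, had 0, 2.37 and 9.68 FPKM in mesoderm libraries and 0, 9.35 and 61.6 FPKM in endoderm libraries and was lower in mesoderm (-1.47 ± 0.28; -0.90 in embryo 1 and -2.05 in embryo 2, adjusted p = 0.013). The antagonist Nog, with 0, 0 and 0.931 FPKM in mesoderm libraries and 0, 4.79 and 15.4 FPKM in endoderm libraries, was lower too (-2.07 ± 0.18; -2.29 in embryo 1 and -1.85 in embryo 2, adjusted p = 0.0014), as was the BMP target Id2 (-1.68 ± 0.39; -2.59 in embryo 1 and -0.77 in embryo 2, adjusted p = 0.028). Bmp4 was among the 13 tested members that did not pass.

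FGF pathway genes were higher in mesoderm for 7 of 23 members and lower for 3, against 10.3% and 9.35% of all genes. Fgf15, a ligand, had 0, 11.3 and 58.9 FPKM in mesoderm libraries and 0, 0 and 68.7 FPKM in endoderm libraries (2.94 ± 0.36; 2.36 in embryo 1 and 3.52 in embryo 2, adjusted p = 0.0033). Fgf3, another ligand, rose by 2.29 ± 0.38 (1.84 in embryo 1 and 2.74 in embryo 2, adjusted p = 0.0092), a call lost without embryo 1 or embryo 2 (adjusted p = 0.11 and 0.24). Fgfr1, the receptor that gastrulation requires, and the response genes Dusp6, Etv1 and Etv5 rose, with Etv1 at 1.58 ± 0.21 (1.51 in embryo 1 and 1.64 in embryo 2, adjusted p = 0.004). Fgfr3 and Fgfr4 were lower, with Fgfr3 at -1.14 ± 0.18 (-0.93 in embryo 1 and -1.36 in embryo 2, adjusted p = 0.0072), as was the membrane protein Flrt3 (-1.64 ± 0.18; -1.51 in embryo 1 and -1.78 in embryo 2, adjusted p = 0.0025). Receptors of the same family thus differed in opposite directions.

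Of 12 retinoic acid genes, 1 rose and 1 fell, near the shares of all genes (10.3% and 9.35%). Crabp1, a cellular carrier of retinoic acid, was 2.91 ± 0.25 higher (2.57 in embryo 1 and 3.26 in embryo 2, adjusted p = 0.0014), and Rbp4 was lower. Cyp26a1, which degrades retinoic acid, did not pass (0.72 ± 0.25; 0.66 in embryo 1 and 0.78 in embryo 2, adjusted p = 0.082). Of 7 hedgehog genes, Smo, Gli3 and Gas1 rose and the ligand Ihh, a visceral endoderm product, fell (-1.01 ± 0.16; -1.11 in embryo 1 and -0.91 in embryo 2, adjusted p = 0.008). Gas1, a co-receptor, was 2.36 ± 0.30 higher (1.75 in embryo 1 and 2.97 in embryo 2, adjusted p = 0.0036), and the call on Smo (0.98 ± 0.24; 1.32 in embryo 1 and 0.65 in embryo 2, adjusted p = 0.03) was lost with equal medians (adjusted p = 0.052) and without embryo 1 (adjusted p = 0.05). Among 8 Hox and Cdx genes, Hoxb1, with a median of 2.67 FPKM in mesoderm and 0 FPKM in endoderm libraries, rose by 1.25 ± 0.18 (1.06 in embryo 1 and 1.44 in embryo 2, adjusted p = 0.0055). Hoxb2 rose by 0.84 ± 0.21 (0.54 in embryo 1 and 1.13 in embryo 2, adjusted p = 0.035), a call lost without embryo 2 (adjusted p = 0.13), and Cdx2, a gene of trophoblast and posterior embryo, fell (-0.64 ± 0.16; -0.75 in embryo 1 and -0.53 in embryo 2, adjusted p = 0.034, and 0.074 without embryo 1). Of 14 node and axial mesoderm genes, T, Gdf1 and Lhx1 rose and Nog, Foxa2 and Tppp3 fell. Of 26 migration and guidance genes, 6 rose and 2 fell. These counts, and those of the hedgehog and of the Hox and Cdx genes, stand against 10.3% higher and 9.35% lower of all genes. The falls among migration and guidance, hedgehog, and Hox and Cdx genes were near that share. Aplnr, the apelin receptor of migrating mesoderm, exceeded both endoderm libraries in 20 of 20 sections, at 2.39, 18.7 and 52.7 FPKM in mesoderm libraries and 0, 0.551 and 42.4 FPKM in endoderm libraries (2.91 ± 0.22; 2.88 in embryo 1 and 2.95 in embryo 2, adjusted p = 0.00092).

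Among epiblast and pluripotency genes, 5 of 20 were higher in mesoderm and 1 lower, against 10.3% and 9.35% of all genes. Pou5f1 (Oct4), which gastrulating cells still express, had 21.7, 102 and 309 FPKM in mesoderm libraries and 0, 34.3 and 217 FPKM in endoderm libraries, and exceeded both endoderm libraries in 20 of 20 sections (1.90 ± 0.21; 2.21 in embryo 1 and 1.59 in embryo 2, adjusted p = 0.0024). Sox2, which marks epiblast and neural cells, was low in both, at 0, 0.985 and 3.92 FPKM in mesoderm libraries and 0, 0 and 9.01 FPKM in endoderm libraries, and did not pass (0.34 ± 0.17; 0.15 in embryo 1 and 0.53 in embryo 2, adjusted p = 0.18). The Ifitm genes, membrane proteins known from early mesoderm and germ cell precursors, were higher: Ifitm1 had 16.1, 519 and 1339 FPKM in mesoderm libraries and 0, 63.8 and 571 FPKM in endoderm libraries (2.88 ± 0.44; 3.88 in embryo 1 and 1.88 in embryo 2, adjusted p = 0.0068). Ifitm2 differed by 2.38 ± 0.37 (3.09 in embryo 1 and 1.66 in embryo 2, adjusted p = 0.0073). The call on Ifitm1 was lost without embryo 1 (adjusted p = 0.1), and that on Ifitm2 without embryo 1 or embryo 2 (adjusted p = 0.21 and 0.12). Of 10 genes on that list, 5 rose and 2 fell.

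Cell cycle genes were higher in mesoderm for 9 of 28 members and lower for 2, against 10.3% and 9.35% of all genes. With equal medians the counts were 17 and 2, against 15.3% and 10.4% of all genes. Ccnd1 and Ccnd2, D-type cyclins, rose by 1.61 ± 0.26 (2.06 in embryo 1 and 1.16 in embryo 2, adjusted p = 0.0081) and 1.67 ± 0.26 (1.97 in embryo 1 and 1.37 in embryo 2, adjusted p = 0.0076). The inhibitor Cdkn1c (p57), which giant cells also express, fell (-1.51 ± 0.23; -1.94 in embryo 1 and -1.09 in embryo 2, adjusted p = 0.0073). Of 24 genes of glycolysis and pyruvate handling, 8 rose, all of them enzymes, and 3 fell, all of them transporters. The enzyme gene Ldhb had 18.9, 78.0 and 126 FPKM in mesoderm libraries and 0.726, 34.5 and 78.9 FPKM in endoderm libraries, and exceeded both endoderm libraries in 20 of 20 sections (1.48 ± 0.19; 1.5 in embryo 1 and 1.46 in embryo 2, adjusted p = 0.0035). The glucose transporter gene Slc2a3 had 2.48, 18.6 and 97.3 FPKM in mesoderm libraries and 3.12, 228 and 792 FPKM in endoderm libraries (-3.11 ± 0.22; -3.42 in embryo 1 and -2.81 in embryo 2, adjusted p = 0.00083). Slc2a1, a second glucose transporter, and Slc16a1, a lactate transporter, were lower too (Slc2a1 -1.5 ± 0.20; -1.72 in embryo 1 and -1.27 in embryo 2, adjusted p = 0.0041, and Slc16a1 -1.97 ± 0.21; -2.15 in embryo 1 and -1.80 in embryo 2, adjusted p = 0.0022).

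Imprinted genes moved in both directions, 4 of 20 higher and 7 lower, against 10.3% and 9.35% of all genes. The maternally expressed RNAs H19 and Meg3 were lower in mesoderm, H19 with a difference of -3.02 ± 0.33 (-3.66 in embryo 1 and -2.37 in embryo 2, adjusted p = 0.0023) and Meg3 of -1.87 ± 0.18 (-1.85 in embryo 1 and -1.89 in embryo 2, adjusted p = 0.0015). The paternally expressed genes Snrpn and Nnat were higher, Snrpn by 2.03 ± 0.20 (2.14 in embryo 1 and 1.92 in embryo 2, adjusted p = 0.0016) and Nnat by 1.97 ± 0.18 (1.93 in embryo 1 and 2.02 in embryo 2, adjusted p = 0.0014). Igf2, which is paternally expressed and abundant in extra-embryonic tissue, was among the lower genes, so the calls did not divide by parental origin. The other lower members were Igf2r, Cdkn1c, Sgce and Airn, and the other higher members were Phlda2 and Ndn. Of 10 immediate early genes tested, 4 fell and none rose, against 9.35% and 10.3% of all genes. Of the 4, 3 averaged under 1 FPKM in mesoderm, and Fos was at -1.26 ± 0.19 (-1.55 in embryo 1 and -0.98 in embryo 2, adjusted p = 0.0061).

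EA and EP did not contribute alike to every difference, although the difference between them was not tested here. Set against EA alone, 524 genes were higher and 887 lower in mesoderm, and set against EP alone, 1678 were higher and 941 lower. Cer1 had a median of 17.1 FPKM in M, 195 FPKM in EA and 8.4 FPKM in EP, and its difference against EP alone was 0.28 (adjusted p = 0.42). Hesx1, a head homeobox gene of anterior endoderm, had medians of 0.209, 21.9 and 0 FPKM in M, EA and EP, with -1.43 ± 0.22 against both (-1.76 in embryo 1 and -1.09 in embryo 2, adjusted p = 0.0071) and 0.39 against EP alone (adjusted p = 0.25). Sfrp5 and Fzd5, genes of anterior visceral endoderm, were likewise not called against EP alone, at -0.30 (adjusted p = 0.3) and -0.12 (adjusted p = 0.64). Of 16 anterior visceral endoderm genes, 10 were lower in mesoderm, 4 of them with a mesoderm mean under 1 FPKM, and Otx2 and Lhx1 were higher. Otx2 had medians of 11.7, 16.3 and 2.43 FPKM in M, EA and EP, and its difference was 0.88 ± 0.17 against both (adjusted p = 0.014) and -0.10 against EA alone (adjusted p = 0.82).

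Several EP libraries held RNA of mesoderm and streak genes. Mesp1 had medians of 173, 1.99 and 34.9 FPKM in M, EA and EP, and in sections 2 to 5 of embryo 2 it was at 172, 269.8, 319 and 365 FPKM in M. In EP of those sections Mesp1 was at 122, 268, 221 and 203 FPKM. T was at 174, 238, 169 and 103 FPKM in M of those sections, against 122, 190.5, 136 and 169.8 FPKM in EP. In section 5 T was higher in EP than in M. Snai1 was not called against EP alone (0.35, adjusted p = 0.54), while Hand1 and Nodal were not called against EA alone (-0.53, adjusted p = 0.16, and -0.64, adjusted p = 0.11).

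Along the axis, no gene passed the test for a slope of the difference from distal to proximal (limma; 2509 genes at an unadjusted p under 0.05, smallest adjusted p = 0.071). Without embryo 2, 616 genes had a higher and 421 a lower slope at an adjusted p under 0.05, and without embryo 1 there were 0. From sections 2 to 6 alone, 180 genes were higher and 408 lower in mesoderm, and from sections 7 to 11 alone, 1407 were higher and 1059 lower. The values of these stretches in each embryo are descriptions. Hand1 in mesoderm was at most 0.684 FPKM in sections 2 to 7 of both embryos, and at 36.8 and 21.0 FPKM in section 11 of embryo 1 and embryo 2. Its mean difference was -2.55 in embryo 1 and -2.09 in embryo 2 in the distal sections 2 to 6 and 0.69 in embryo 1 and 0.30 in embryo 2 in the proximal sections 7 to 11. Hand1 and the giant cell gene Prl3d1 are given here for single endoderm libraries, as examples. In EP of embryo 1, Hand1 was at 0.988, 17.6 and 0 FPKM in sections 3, 7 and 11, and Prl3d1 at 1659.8, 8900.4 and 1.46 FPKM. Among these sections, both genes were highest in section 7 and lowest in section 11. From section 8 to section 9 of the same EP, Hand1 rose from 9.30 to 14.1 FPKM while Prl3d1 fell from 6769 to 1828 FPKM. In EP of sections 4 and 9 of embryo 2, Hand1 was at 7.18 and 14.8 FPKM and Prl3d1 at 31.6 and 752 FPKM. The part of giant cell RNA in the Hand1 difference was not tested.

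Pdgfra and Snai1 were lower in M distally in embryo 1 and higher proximally in both embryos: Pdgfra differed by -1.08 in embryo 1 and 0.82 in embryo 2 distally and by 1.64 in embryo 1 and 1.97 in embryo 2 proximally, and Snai1 by -0.92 in embryo 1 and 0.71 in embryo 2 and by 2.18 in embryo 1 and 2.41 in embryo 2. Over both embryos Snai1 was at -0.10 in sections 2 to 6 (adjusted p = 0.9), and Pdgfra reached 1.81 in sections 7 to 11 (adjusted p = 0.0059). Kdr differed by 0.30 in embryo 1 and 1.17 in embryo 2 distally and by 2.67 in embryo 1 and 2.80 in embryo 2 proximally. Foxa2 in M was at 29.6 FPKM in section 2 of embryo 1 and 27.0 FPKM in section 2 of embryo 2, the highest M values of each embryo, against 0 and 0.618 FPKM in section 11. In M, Ttr was at most 11.3 FPKM in embryo 1 and 232 FPKM in embryo 2. In EA it was at 42.1 FPKM in section 2 and 1698 FPKM in section 11 of embryo 1, and at 9.33 and 3461 FPKM in those sections of embryo 2. Its mean difference was -2.89 in embryo 1 and -3.55 in embryo 2 distally and -6.87 in embryo 1 and -3.17 in embryo 2 proximally.

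**Figure D5:**
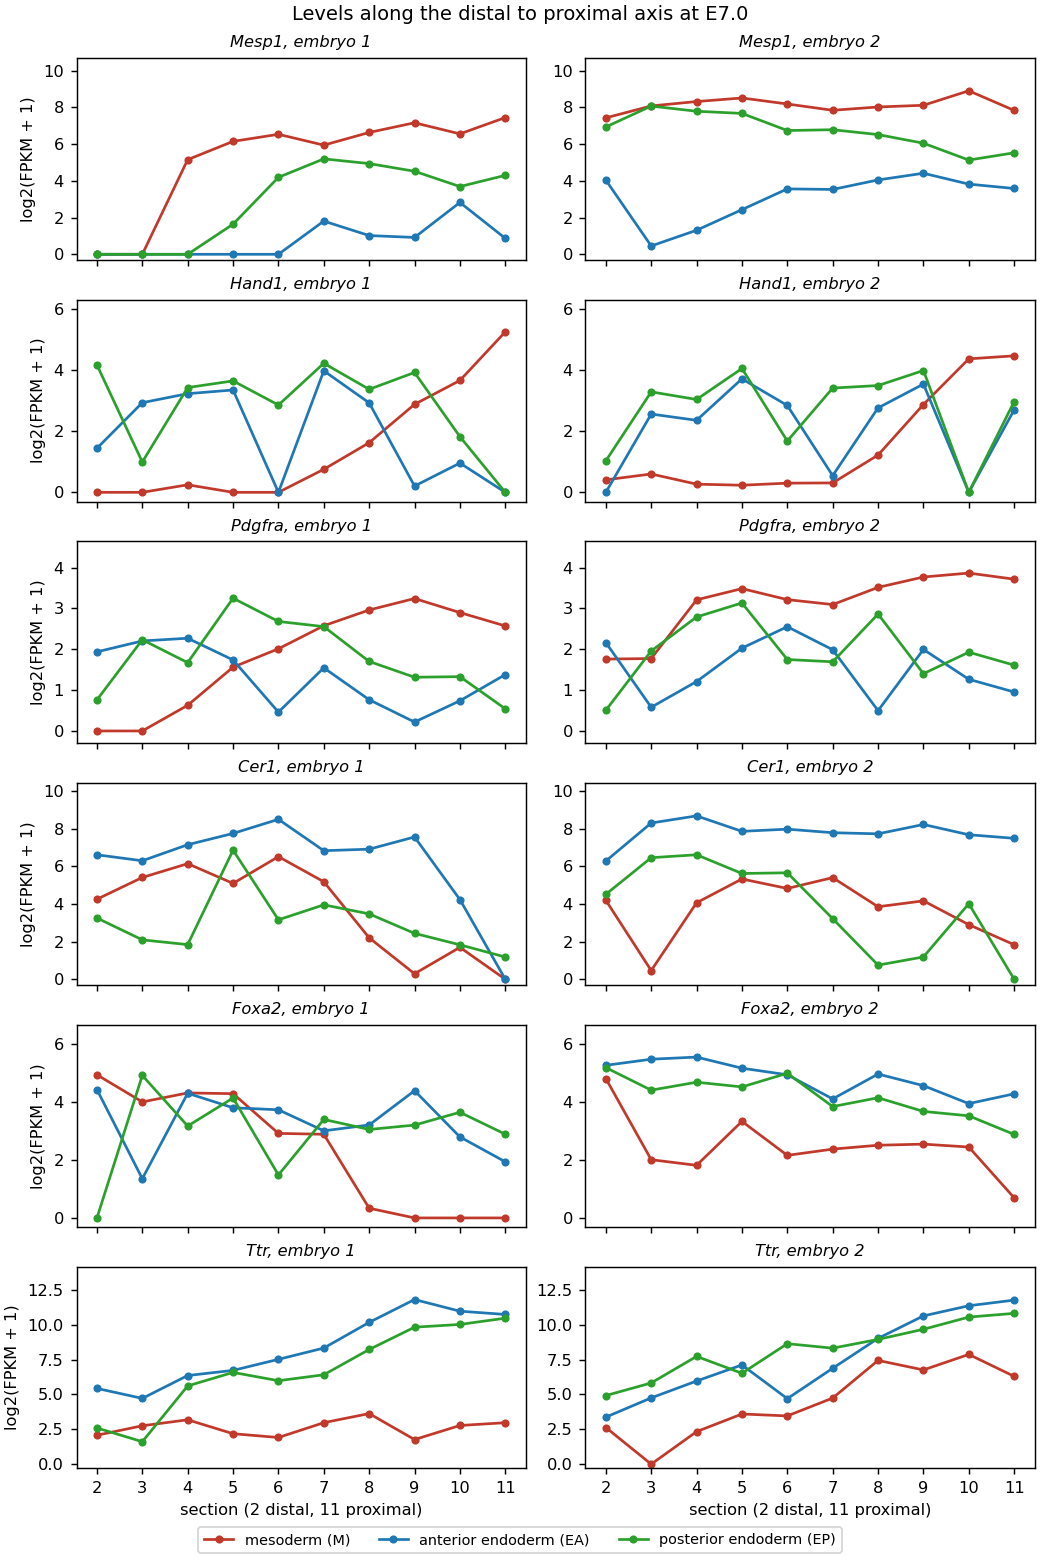
Levels of 6 genes along sections 2 (distal) to 11 (proximal), as log2(FPKM + 1), in M (red), EA (blue) and EP (green) of embryo 1 on the left and embryo 2 on the right, 1 library per point. Hand1 in M reaches 36.8 FPKM in section 11 of embryo 1, Cer1 is highest in EA in all sections but section 11 of embryo 1, and Ttr in M of embryo 2 reaches 232 FPKM while staying below EA and EP.

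At E7.5, in 72 libraries of 2 other C57BL/6 embryos (anterior and posterior mesoderm, MA and MP, against EA and EP), 755 genes (7.18%) were higher and 900 (8.56%) lower in mesoderm. Of the 2061 genes called at E7.0, 2038 had the same sign at E7.5. The share of all genes tested with the same sign at both stages was not counted, so 2038 has no background to be read against. The E7.5 embryos also entered the spread behind the E7.0 calls, so this count is not a separate test of those calls. No gene passed the test of the change between the stages (limma; 300 at an unadjusted p under 0.05, smallest adjusted p = 0.764). Streak genes are given with both values: T differed by 0.42 ± 0.27 at E7.5 and 2.80 ± 0.27 at E7.0, with an adjusted p of 0.91 for the change. Mixl1 differed by 0.36 ± 0.22 at E7.5 and 2.45 ± 0.22 at E7.0 (adjusted p of the change 0.85), and Eomes by 0.11 ± 0.18 and 1.45 ± 0.18 (adjusted p of the change 0.94). Pdgfra was 1.52 ± 0.27 at E7.5 (adjusted p = 0.013), and Cdh1 -2.61 ± 0.20 (adjusted p = 0.001). The Prl3d1 difference was -4.41 ± 0.43 and that of Hba-a1 -2.39 ± 0.33 at E7.5 (adjusted p = 0.0018 and 0.0051), so both genes were lower in mesoderm libraries at both stages. Without embryo 1 of E7.0, 4 genes had a higher and 16 a lower change between the stages, and without embryo 2, 418 and 48.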

How the data were processed

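The deposited values are FPKM from the authors, in 1 table per embryo. The submitters' processing notes name mm10, TopHat2 2.0.8b and Cufflinks 2.1.1, and the annotation and options are not given in the sources used here. Per the labels' protocols, embryos were embedded in OCT and cryosectioned, regions were taken by laser microdissection, and libraries were made with Nextera XT. FPKM are not counts, so no count test was run. Low genes can differ by chance at this depth, and log2(FPKM + 1) understates their change.

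From 4 tables, each column was assigned to a sample from its embryo, section and region code, and 28 columns that match no sample label were not used. No 2 of the 60 libraries were identical. Genes entered the test with a mean of 1 FPKM or more in mesoderm or endoderm libraries of E7.0 or E7.5. Paired section differences were averaged per embryo and entered a limma 3.58.1 model of the stages (R 4.3.3), with robust moderation and a trend, with E7.5 embryos 5 and 6 sharing the spread (2 residual degrees of freedom), Benjamini-Hochberg adjustment and a two-sided threshold of 0.05. SE is the moderated standard error. M and endoderm were paired because they come from the same animal, and their deviations from the stage means correlated by 0.686 at E7.0 across genes. The alternatives changed the scaling, pseudocount, gene filter, sections, embryos, pairing and endoderm code, and their effect is given in the closing section. Depth used 2115 genes with 1 transcript over 1500 bases in GENCODE vM21.

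The members and gene lists were chosen with earlier results of these data known. Genes named are the 15 higher and 15 lower with the largest difference (adjusted p under 0.05, log2 difference of at least 1, same sign in both embryos, mean of at least 5 FPKM, no predicted genes), up to 5 members of each of 32 lists with the smallest p, and a panel of 27 germ layer genes, while no gene qualified by its slope or by its change between stages. List members outside this rule are named without values, and marker genes for their levels. Promoters were found for 104 of the 161 named genes, and the first RefSeq entry of a gene was used. Tables and figures used Python 3.11.15, numpy 2.4.6, pandas 2.3.3 and matplotlib 3.10.9.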

Additional observations from a re-analysis of the deposited data

Results flagged for a closer look

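There were 6 groups of 10 libraries, each of 1 region in 1 embryo, and 11 measures of a library, which are not independent of each other. In 8 of these 66 sets of values the highest or lowest library lay further from the others than Dixon's 95% limit for 10 values (0.466 of the range, on log2 of the value + 1 for FPKM sums). Chance gives about 1 such library in 20 sets. Among mesoderm libraries, that of section 2 of embryo 1 had the lowest FPKM sum, 111790, against a group median of 307190. The same library had the highest sum of node markers, 3.78 FPKM, against a median of 0. The mesoderm library of section 10 of embryo 1 had the lowest sum of maternal decidua and blood markers, 1.83 FPKM, against a median of 488 FPKM. In embryo 2, the mesoderm library of section 5 had the highest sum of embryonic blood markers, 2.44 FPKM, against a median of 0.369 FPKM.

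Among endoderm libraries, the EP library of section 2 of embryo 2 was lowest in 2 sets, with 3.19 FPKM of extra-embryonic ectoderm markers (median 30.4 FPKM) and 4.47 FPKM of parietal endoderm markers (median 53.3 FPKM). The EA library of section 10 of embryo 1 had the lowest parietal endoderm sum, 6.46 FPKM, against a median of 47.4 FPKM. The EP library of section 5 of embryo 1 had the highest sum of embryonic blood markers, 8.31 FPKM, against a median of 0. The causes were not tested.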

How the results depend on the processing

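Counts of genes called higher and lower in mesoderm moved by over 1.5 times from 1078 and 983 under these alternatives. They were 431 and 641 with no gene filter, and 559 were lower with a filter of 5 FPKM. Leaving out 1 embryo gave 1126 to 3160 higher and 955 to 1692 lower, 0 to 616 higher and 0 to 421 lower slopes, and 4 to 418 higher and 16 to 48 lower changes between stages. Taking sections as observations gave 2595 and 1586, sections 2 to 6 gave 180 and 408, log2 of the mean of EA and EP gave 644 higher, EA alone 524 higher and EP alone 1678 higher. Embryo 1 without sections 2 to 4 gave 1639 higher and embryo 2 without sections 8 to 11 gave 677 higher, both chosen after seeing the data. Without the pairing (no replicate block), 89 were higher and 306 lower.

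Single genes turned their sign under some alternatives, each time without passing the test: Gata4 was -0.60 to 0.055 with 1 embryo left out, Otx2 -0.10 and Sox2 -0.30 against EA alone, and Hesx1 0.39 and Cer1 0.28 against EP alone. In sections 2 to 6 Snai1 was -0.10 and Pdgfra -0.13, and in sections 7 to 11 Gata6 was 0.18 and Hand1 0.50. The cause was not tested. With 2 embryos and about 20 cells a library, differences of low genes are the least certain, and depth was estimated, not given.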
